A study of Mus musculus with 30 samples.

Results

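NF-κB subunits and the feedback inhibitors that restrain them were followed as 10 named genes, *Nfkbia*, *Nfkbie*, *Nfkbiz*, *Tnfaip3*, *Nfkb1*, *Nfkb2*, *Rel*, *Relb*, *Bcl3* and *Tnip1*, out of 28586 genes listed in either fraction of the data. They were named as a pathway set with earlier results of these data known, and all 10 were listed in both fractions. RNA came from the small bowel muscularis externa (*ME*) of mice that were naïve or had undergone intestinal manipulation (IM), a mechanical handling of the bowel that models postoperative ileus, and were killed after 3 h (IM3h), 24 h (IM24h) or 72 h (IM72h). The *RiboTag* fraction is mRNA precipitated with an antibody against HA from mice in which Cre-expressing cells carry HA-tagged RPL22, a ribosomal protein, and the *ME* fraction is RNA of the same kind of lysate without precipitation. According to the labels, all *RiboTag* samples and the *ME* samples of IM24h and IM72h came from the Cre line B6 Tg(Sox10-icre/ERT2)388Wdr/J crossed with the floxed tag line B6N.129 Rpl22tm1.1Psam/J. The labels of naïve and IM3h *ME* samples name B6.Cg-Tg73.12Mvs/J(Gfap-cre) as the Cre line of the same cross. The *Sox10* promoter drives Cre in enteric glia and the inducible form needs tamoxifen. Naïve mice are the untreated controls, and every mouse compared carried the tag cross. The count tables held 3 naïve, 4 IM3h, 4 IM24h and 4 IM72h *RiboTag* libraries and 3 naïve, 3 IM3h, 4 IM24h and 4 IM72h *ME* libraries, and library numbers below only follow the order of their names.

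NF-κB is a family of dimeric transcription factors that rest in the cytoplasm while bound to inhibitory IκB proteins. Signals from cytokine and Toll-like receptors lead to phosphorylation and degradation of the inhibitors, which frees the dimers to enter the nucleus. Many of the genes they switch on encode inhibitors of the pathway itself, so that induction of *Nfkbia* or *Tnfaip3* mRNA is a widely used sign that the pathway was engaged. IκBα (*Nfkbia*) and IκBε (*Nfkbie*) hold dimers in the cytoplasm, IκBζ (*Nfkbiz*) and BCL3 (*Bcl3*) act in the nucleus as atypical IκB proteins, A20 (*Tnfaip3*) edits ubiquitin chains on upstream adaptors, and ABIN-1 (*Tnip1*) is a partner of A20. *Nfkb1* and *Nfkb2* encode the precursors p105 and p100, which are processed to p50 and p52, and *Rel* and *Relb* encode subunits with a transactivation domain. In the bowel wall the pathway is known for its part in the inflammatory response of resident macrophages, muscle and glia.

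The tables gave estimated counts from libraries of mRNA 3′ ends. Totals per library were 3010338 to 7899551 counts in the *RiboTag* fraction and 6603125 to 12866014 in the *ME*. *AY036118*, an RNA that overlaps ribosomal RNA, took 2.0% to 14% of the counts of naïve and IM3h *RiboTag* libraries, 22.2% to 59.2% at IM24h and 58.0% to 80.1% at IM72h, which left 663819 to 1619436 other counts per library at IM72h. In the *ME* it went the other way, with 16.1% to 33.5% in naïve and 24.1% to 25.1% in IM3h libraries against 1.3% to 6.5% at IM24h and 2.3% to 3.7% at IM72h. Its part in the changes over time was not tested. The summed level of 7 glial markers was 1571 to 1907 CPM (TMM-scaled counts relative to library size) in naïve *RiboTag* libraries and 116 to 144 CPM in naïve *ME*. The 6 smooth muscle markers summed to 4929 to 7545 CPM in naïve *RiboTag* libraries and 21962 to 22852 CPM in the *ME*. TMM factors were taken within each fraction, so CPM compare libraries of the same fraction. In a fit of both fractions 7 of 7 glial markers were called higher in naïve *RiboTag* libraries and 5 of 6 smooth muscle markers lower, so muscle RNA was lower and not absent. Glia below stands for the *RiboTag* fraction, which also held RNA of other cells. *RiboTag* library 2 of IM72h stood apart from the rest of its group with 11729 genes detected against 8814 to 9057, and *RiboTag* library 4 of IM3h had 15829 against 18624 to 19311. Tissue RNA cannot tell fewer cells of a type from less RNA per cell. Scaling to library totals or to reference genes in place of TMM moved the median over all genes of the log2 fold change by -0.20 and -0.40 in *RiboTag* at IM3h, -0.85 and -1.40 at IM24h, -1.73 and -1.67 at IM72h, 0.64 and -0.37 in *ME* at IM24h, and 0.60 and -0.60 in *ME* at IM72h. No source says which libraries share an animal, so p-values measure the spread between libraries.

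RefSeq promoter windows of build GRCm38.p6, which reach from 250 bases before to 50 bases after a transcription start, were found by symbol for 7 of the 10 members. *Nfkbiz*, *Nfkb1* and *Relb* had no entry. The window was searched on both strands for the 10-base κB consensus, 3 G followed by a purine, any 2 bases, 2 pyrimidines and 2 C. All 7 members with an entry held at least 1 match in at least 1 of their windows, against 9.55% of the 27025 symbols in the table and 8.46% of its 32851 windows. A narrower form contained in the consensus, with A as the purine and T for both pyrimidines, matched in 2 of the 7 members, *Nfkbia* and *Nfkb2*, and in 1.63% of symbols. A match describes letters in the window and says nothing of binding in these cells. The windows of 4 members are printed 5′ to 3′ with the matches in capitals, of *Nfkbia* and *Rel*, which rose in both fractions, and of *Bcl3* and *Tnip1*, whose change differed between fractions. They lie on the minus strand, *Nfkbia* at chr12:55492598-55492897, *Rel* at chr11:23770920-23771219, *Bcl3* at chr7:19822706-19823005 and *Tnip1* at chr11:54962891-54963190, and each covers the annotated start of its gene.
Nfkbia: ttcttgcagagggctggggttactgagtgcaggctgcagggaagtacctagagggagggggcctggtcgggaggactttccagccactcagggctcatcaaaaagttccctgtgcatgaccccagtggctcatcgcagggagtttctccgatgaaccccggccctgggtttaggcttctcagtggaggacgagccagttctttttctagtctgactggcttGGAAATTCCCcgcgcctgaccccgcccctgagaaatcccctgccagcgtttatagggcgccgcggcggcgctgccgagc
Rel: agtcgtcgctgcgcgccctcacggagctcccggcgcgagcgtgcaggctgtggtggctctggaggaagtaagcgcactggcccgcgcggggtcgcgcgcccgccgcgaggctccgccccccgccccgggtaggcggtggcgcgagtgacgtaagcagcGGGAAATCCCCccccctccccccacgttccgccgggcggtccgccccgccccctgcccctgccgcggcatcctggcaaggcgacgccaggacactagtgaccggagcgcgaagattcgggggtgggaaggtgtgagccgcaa
Bcl3: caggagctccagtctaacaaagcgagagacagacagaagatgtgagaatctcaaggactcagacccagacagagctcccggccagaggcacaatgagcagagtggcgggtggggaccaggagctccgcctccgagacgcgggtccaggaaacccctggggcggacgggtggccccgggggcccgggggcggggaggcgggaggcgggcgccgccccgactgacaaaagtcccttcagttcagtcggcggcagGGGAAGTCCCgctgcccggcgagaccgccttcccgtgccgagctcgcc
Tnip1: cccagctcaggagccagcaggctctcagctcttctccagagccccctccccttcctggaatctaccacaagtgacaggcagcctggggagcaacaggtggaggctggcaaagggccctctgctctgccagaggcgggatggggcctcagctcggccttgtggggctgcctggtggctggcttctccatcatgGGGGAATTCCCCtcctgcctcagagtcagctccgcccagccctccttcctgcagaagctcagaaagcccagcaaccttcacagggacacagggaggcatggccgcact

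In the *Nfkbia* window the match GGAAATTCCC began 29 bases before the start. *Rel* held 2 matches that overlap by all but 1 base and form an 11-base run, and *Tnip1* held 3 such matches in a 12-base run that began 58 bases before the start. In *Bcl3* the match GGGAAGTCCC began at base 3 after the start. Among the members not printed, *Nfkbie* held GGGGGATTCC, *Tnfaip3* held GGAAATCCCC beginning 12 bases before its upstream start, and *Nfkb2* held GGGACTTTCC beginning at base 11 after 1 of its 3 annotated starts. Members with and without a measured rise in glia thus both held the consensus in this window.

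In naïve mice 1 of the 9 members tested, *Nfkb1*, differed between the fractions in scaled level. *Nfkbia* had 177, 84.7 and 94.8 CPM in the 3 naïve *RiboTag* libraries and 226, 169 and 176 CPM in the 3 naïve *ME* libraries. CPM were scaled within each fraction, so differences between fractions come from the fit of both, with -0.34 ± 0.28 (log2, SE) for *Nfkbia*. *Nfkb2* was at 75.0 ± 31.5 CPM (SD, n = 3) in *RiboTag* and 74.1 ± 7.09 CPM (n = 3) in *ME*, with a log2 difference of 0.35 ± 0.29. *Relb* was at 15.5 ± 3.73 and 16.1 ± 5.22 CPM, with a log2 difference of 0.27 ± 0.33. *Tnip1* was at 28.7 ± 2.85 and 36.6 ± 6.80 CPM, with a log2 difference of -0.02 ± 0.215. *Tnfaip3* was close to the limit of detection in naïve glia, with 0, 4 and 0 counts. *Nfkb1* had 62.7, 32.3 and 68.3 CPM in *RiboTag* against 20.7, 18.3 and 22.7 CPM in *ME*. In the fit of both fractions the log2 difference of *Nfkb1* was 1.73 ± 0.29 (SE, adjusted p = 0.00347). Called means a Benjamini-Hochberg adjusted p under 0.05 in the edgeR quasi-likelihood test here and below, and 13.4% of the 14769 genes tested were called higher in naïve *RiboTag* libraries. Counts of *Nfkb1* transcripts that end near the 3′ end of the gene did not keep this call. Their log2 difference was -0.62 (adjusted p = 0.46), as described with its transcripts. With library totals in place of TMM, 4 members were called in this comparison. The labels name *Sox10*-icre/ERT2 for naïve *RiboTag* and *Gfap*-cre for naïve *ME* samples, so mouse line and fraction cannot be told apart here.

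At 3 h after IM, 4 of the 10 members rose in the *RiboTag* fraction, *Nfkbia*, *Nfkbiz*, *Nfkb1* and *Rel*, and none fell. The background for a rise was 8.86% of the 16053 genes tested, with 4.44% for a fall (66.6% of all calls, 51.2% with library totals and 44.2% with reference genes), and the median log2 fold change of the 10 members was 1.85 against -0.04 over all genes. In 7 members every IM3h library was above every naïve library, which held for 14.5% of all genes. With reference genes 2 members remained called, *Nfkbia* and *Rel*, and *Nfkbiz* and *Nfkb1* had adjusted p of 0.176 and 0.0901.

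*Nfkbia* rose most among the abundant members. It had 177, 84.7 and 94.8 CPM in naïve glia and 1524, 1558, 1721 and 2746 CPM at IM3h, so the lowest IM3h library was several times the highest naïve one. The log2 fold change was 4.03 ± 0.38 (SE), a 16.4-fold rise (adjusted p = 7.22e-05), and it lay between 3.79 and 4.45 when any single library was left out. IM3h library 4 was the highest, and *Nfkbia* rose by 3.79 without it.

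*Rel*, the subunit c-Rel, had 3.31, 4.68 and 7.72 CPM in naïve glia and 38.2, 30.3, 55.7 and 34.9 CPM at IM3h. The groups lay far apart, with a log2 fold change of 2.97 ± 0.40 (adjusted p = 7.12e-04). With all 4 groups of the fraction in 1 fit, whose shared spread includes the late libraries, *Rel*, *Nfkb1* and *Nfkbiz* were not called (2.91, 1.63 and 1.95, adjusted p = 0.894, 0.718 and 1), while *Nfkbia* remained called. *Nfkbiz*, the nuclear IκBζ, had 15.4, 13 and 21.6 CPM in naïve glia and 71.0, 83.5, 89.6 and 15.7 CPM at IM3h. In IM3h, 3 libraries were high and library 4 lay within the naïve range, so the groups overlapped. Its log2 fold change was 2.01 ± 0.50 (adjusted p = 0.0209), and the call was lost in 5 of the 7 fits that left out 1 library, with adjusted p up to 0.0873, and was kept without IM3h library 1 or 4.

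*Nfkb1* had 62.7, 32.3 and 68.3 CPM in naïve glia and 110, 168, 177 and 227 CPM at IM3h. The groups did not overlap, and the log2 fold change was 1.69 ± 0.33 (adjusted p = 0.00646). Counts of transcripts that end near the 3′ end of the gene gave 1.43 ± 0.58 (adjusted p = 0.132), which was not called.

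The other 6 members were not called in glia at IM3h. *Tnfaip3*, which encodes A20, had 0, 4 and 0 counts in naïve libraries and 41, 22, 34 and 11 counts at IM3h, so every IM3h library was higher. Its log2 fold change of 4.01 ± 1.68 had an adjusted p of 0.147 at these low counts, and DESeq2 gave 0.0307. *Nfkbie* had 1, 8 and 10 counts in naïve libraries and 28, 36, 21 and 147 counts at IM3h, with the highest value in library 4, and a log2 fold change of 2.91 ± 1.11 (adjusted p = 0.109, DESeq2 0.0255). *Bcl3* had 15.4, 7.42 and 2.97 CPM in naïve glia and 19.6, 31.6, 19.9 and 17.1 CPM at IM3h. The *Bcl3* groups did not overlap, although the highest naïve library was close to the lowest IM3h one, and the log2 fold change was 1.40 ± 0.52 (adjusted p = 0.0997).

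*Tnip1*, which encodes ABIN-1, had 30.8, 29.8 and 25.4 CPM in naïve glia and 34.1, 45.9, 37.4 and 36.8 CPM at IM3h, a small shift with a log2 fold change of 0.48 ± 0.26 (adjusted p = 0.281). *Relb* stood at 15.5 ± 3.73 CPM (n = 3) and 21.7 ± 6.23 CPM (n = 4), with overlapping groups (adjusted p = 0.383). *Nfkb2* was the only member with a lower mean, 75.0 ± 31.5 CPM in naïve glia and 39.5 ± 12.9 CPM at IM3h, but its groups overlapped and it was not called (log2 fold change -0.88 ± 0.35, adjusted p = 0.123). Markers of macrophages and monocytes summed to 95.9 to 195 CPM in naïve *RiboTag* libraries and 66.1 to 130 CPM at IM3h, and 6 listed neutrophil markers to 1.26 to 3.18 and 3.58 to 10.8 CPM. Glial markers summed to 1314 to 2831 CPM at IM3h, with 1 of 7 called higher and 3 called lower. Smooth muscle markers summed to 1962 to 5069 CPM at IM3h, with 3 of 6 called lower. Markers of interstitial cells of Cajal went from 162 to 228 CPM to 63.7 to 151 CPM, with 1 of 4 called lower. Mesothelial markers went from 111 to 288 CPM to 10.9 to 73.5 CPM, with 4 of 5 called lower, and fibroblast markers from 454 to 546 CPM to 190 to 294 CPM, with 2 of 5 called lower. The part of these cells in the changes was not tested. The plot of *RiboTag* levels shows the members by library.

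**Figure D1:**
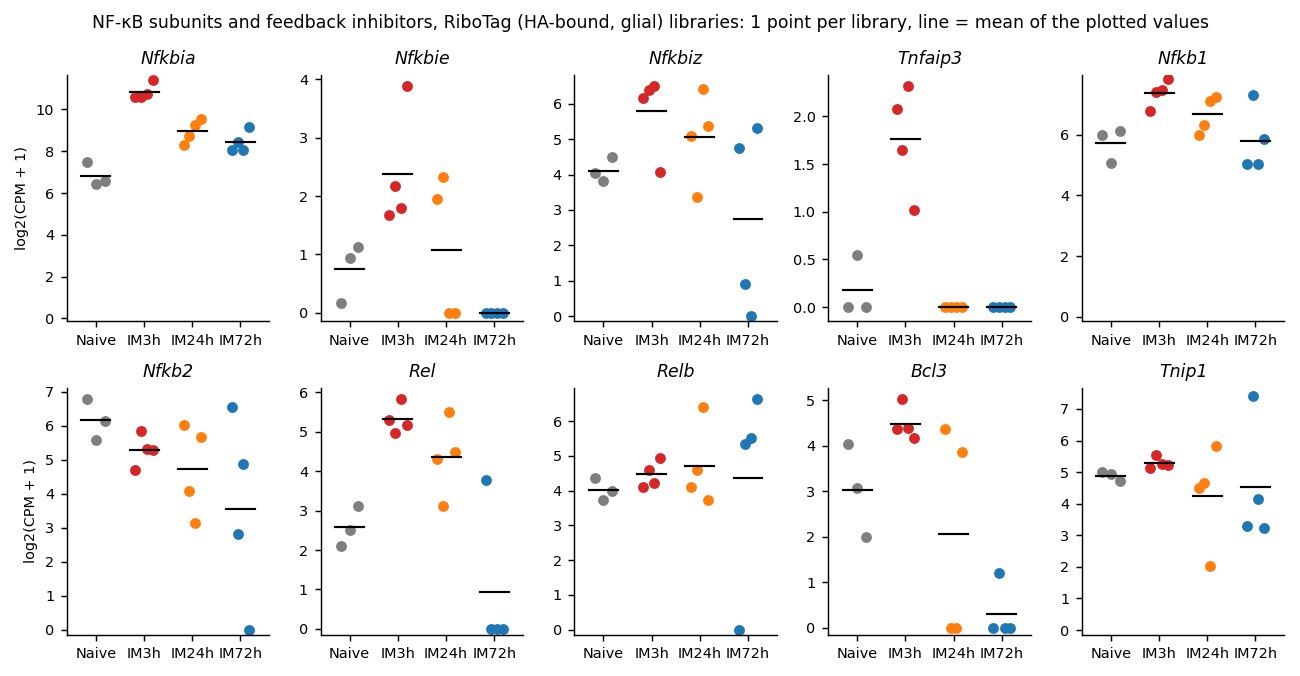
Level of the 10 members in each *RiboTag* library, as log2(CPM + 1) on the vertical axis, by group on the horizontal axis, with 1 point per library and a line at the mean of the plotted values. Naïve has 3 libraries and each other group 4. *Nfkbia* at IM3h lies above the naïve points in all 4 libraries, and *Nfkbie* is at 0 in all IM72h libraries. *Tnfaip3* was not listed for IM24h or IM72h and was set to 0 there.

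In the whole *ME* at IM3h, 9 of the 10 members rose and none fell, against a background of 19.3% of 15333 genes that rose (59.0% of calls, 33.9% with library totals and 22.7% with reference genes). The median log2 fold change of the members was 2.63 against 0.00 over all genes. In 9 members every IM3h library was above every naïve library, which held for 22.7% of genes.

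Among the inhibitors, *Nfkbia* went from 226, 169 and 176 CPM in naïve *ME* to 1583, 2506 and 1487 CPM at IM3h (log2 fold change 3.36 ± 0.21, adjusted p = 2.17e-06). *Tnfaip3* went from 1.08, 0.831 and 1.2 CPM to 20.4, 38.4 and 12.1 CPM (4.52 ± 0.46, adjusted p = 5.78e-05), with 76 to 266 counts per IM3h library. *Tnip1* went from 41.0, 40.1 and 28.8 CPM to 211, 231 and 190 CPM, a 6.04-fold rise. Each of these sets of IM3h libraries lay wholly above the naïve one. *Nfkbie* was the exception, with 2.51 ± 0.71 CPM (n = 3) and 4.69 ± 1.86 CPM (n = 3) in overlapping groups (adjusted p = 0.0956).

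Among the subunits, *Nfkb1* rose 6.37-fold, *Rel* 7.09-fold, *Relb* 3.73-fold and *Nfkb2* 2.02-fold. *Bcl3* changed most of all members. It had 3.25, 2.28 and 6.36 CPM in naïve *ME* and 99.3, 145 and 104 CPM at IM3h, a log2 fold change of 4.87 ± 0.29 (29.3-fold, adjusted p = 1.76e-06). Mesothelial markers went from 125 to 152 CPM in naïve *ME* to 14.9 to 60.0 CPM at IM3h and fibroblast markers from 1774 to 1874 CPM to 992 to 1082 CPM. Markers of interstitial cells of Cajal went from 353 to 370 CPM to 248.8 to 262.1 CPM, of smooth muscle from 21962 to 22852 CPM to 16184 to 19037 CPM, and of endothelium from 29.9 to 30.6 CPM to 40.3 to 47.8 CPM. Summed neutrophil markers moved with these changes, from 0.840 to 1.04 CPM in naïve *ME* to 24.1 to 33.1 CPM at IM3h, while those of macrophages and monocytes were at 203 to 231 and 173 to 196 CPM. The part of these cells in the rise was not tested.

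**Figure D2:**
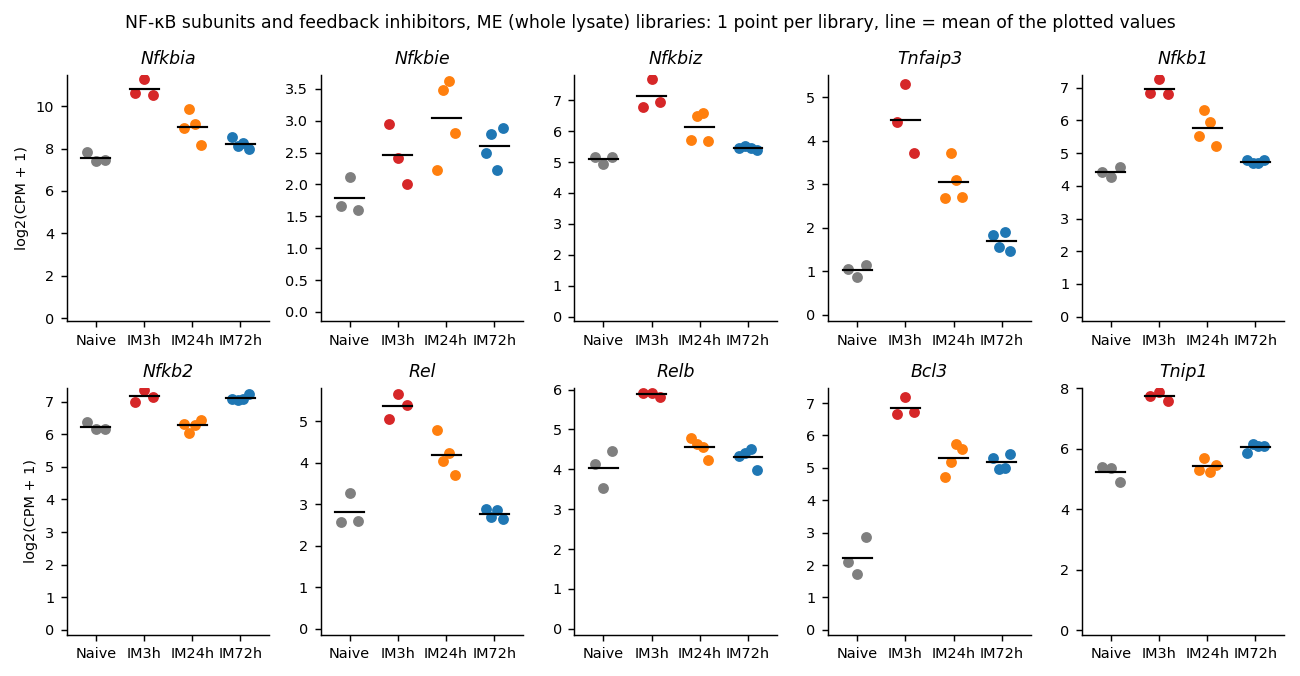
Level of the 10 members in each *ME* library, as log2(CPM + 1) on the vertical axis, by group on the horizontal axis, with 1 point per library (3, 3, 4 and 4) and a line at the mean of the plotted values. For 9 members the IM3h points lie above all naïve points, and *Bcl3* stays above naïve in all IM24h and IM72h libraries.

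The change at IM3h was then compared between fractions by the interaction of fraction and treatment, with the *RiboTag* change minus the *ME* change as its value. It was negative and called for 3 members, *Tnip1*, *Bcl3* and *Nfkb2*, against 0.698% of 17617 genes called in that direction. For *Tnip1* the value was -2.03 ± 0.27 (adjusted p = 0.00136), since glial *Tnip1* went from a mean of 28.7 to 38.6 CPM and tissue *Tnip1* from 36.6 to 211 CPM. For *Bcl3* it was -3.40 ± 0.64 (adjusted p = 0.0158), with means of 8.59 and 22.0 CPM in glia against 3.96 and 116 CPM in tissue. For *Nfkb2* it was -1.81 ± 0.41 (adjusted p = 0.0395), with means that went from 75.0 to 39.5 CPM in glia and from 74.1 to 143 CPM in tissue.

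*Tnip1* kept its call in each of the fits that left out 1 library, with adjusted p up to 0.00812. *Bcl3* lost it in 3 of them, without naïve *ME* library 1 or 2 or IM3h *ME* library 2 (adjusted p up to 0.0588), and *Nfkb2* in 9 (up to 0.119), and scaling to reference genes ended all 3 calls, with values of -2.11 for *Tnip1*, -3.32 for *Bcl3* and -1.80 for *Nfkb2* (adjusted p = 0.0915, 0.0932 and 0.204). For the members that rose in glia no difference was called, and the values were 0.77 ± 0.43 for *Nfkbia* (95% interval -0.06 to 1.61), 0.25 ± 0.48 for *Rel* (-0.69 to 1.19), -0.10 ± 0.60 for *Nfkbiz* and -0.89 ± 0.40 for *Nfkb1* (adjusted p = 0.317). *Relb* was at -1.27 ± 0.43 (adjusted p = 0.155), *Nfkbie* at 2.03 ± 1.18 and *Tnfaip3* at -0.47 ± 1.55. Mouse line and fraction cannot be told apart in this comparison either. The plot of changes at IM3h sets both fractions side by side.

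**Figure D3:**
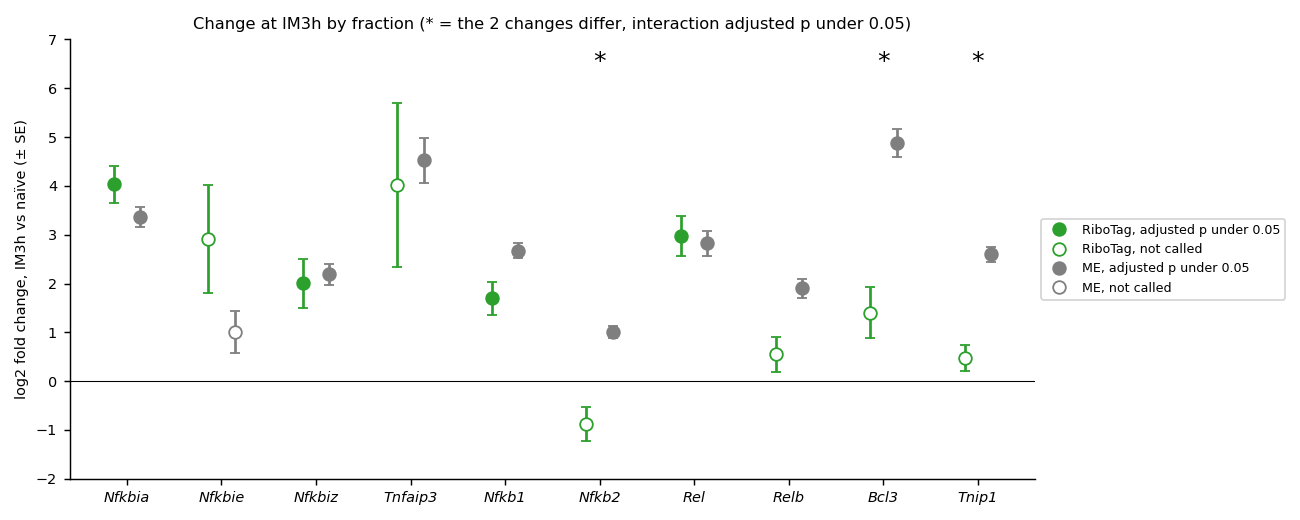
Log2 fold change of each member at IM3h against naïve mice, with bars of 1 SE, for *RiboTag* (green, 4 against 3 libraries) and *ME* (grey, 3 against 3), filled where the adjusted p is under 0.05. Asterisks mark *Nfkb2*, *Bcl3* and *Tnip1*, for which the 2 changes differed in the interaction test. For *Nfkbiz* the points lie at 2.01 and 2.19.

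The transcripts behind the *Nfkb1* counts differed between fractions. The gene lies at chr3:135584655-135691547 on the minus strand (mm10, GENCODE). Of its transcripts with counts listed, 1 coding transcript, at chr3:135584657-135608270, ends within 2 bases of the gene's 3′ end. The longest retained intron form, at chr3:135610590-135691547, ends 25935 bases short of it. In naïve *RiboTag* libraries this retained intron form held 82.1% of the 1351 *Nfkb1* counts and the coding transcript 10%, whereas in naïve *ME* the shares were 37.6% and 52.8% of 449 counts. At IM3h the shares of the retained intron and the coding form were 86.6% and 7.2% in *RiboTag* and 40.8% and 46.3% in *ME*.

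The share of *Nfkb1* counts from transcripts that end within 1 kb of the gene end was 17.2%, 9.2% and 4.2% in the 3 naïve *RiboTag* libraries and 61.0%, 40.9% and 53.4% in the 3 naïve *ME* libraries, with no overlap. At IM3h it was 11.8%, 12.9%, 7.9% and 4.3% in *RiboTag* and 47.3%, 49.9% and 40.3% in *ME*. Later *RiboTag* libraries held almost none, 18, 0, 0 and 17 such counts at IM24h and 0, 1, 0 and 0 at IM72h, where 34 to 365 *Nfkb1* counts in all were found. Such shares come from the authors' assignment of reads to transcripts and do not give read positions. Forms that end inside the gene are not the usual product of a 3′ end library, and the source of their counts was not tested. *Nfkb1* levels in glia are thus mostly counts assigned to a retained intron form that ends inside the gene. In the *ME* both measures gave a rise at IM3h, with a log2 fold change of 2.67 ± 0.15 for all counts and 2.48 ± 0.23 for those at the gene end (adjusted p = 3.11e-05).

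**Figure D4:**
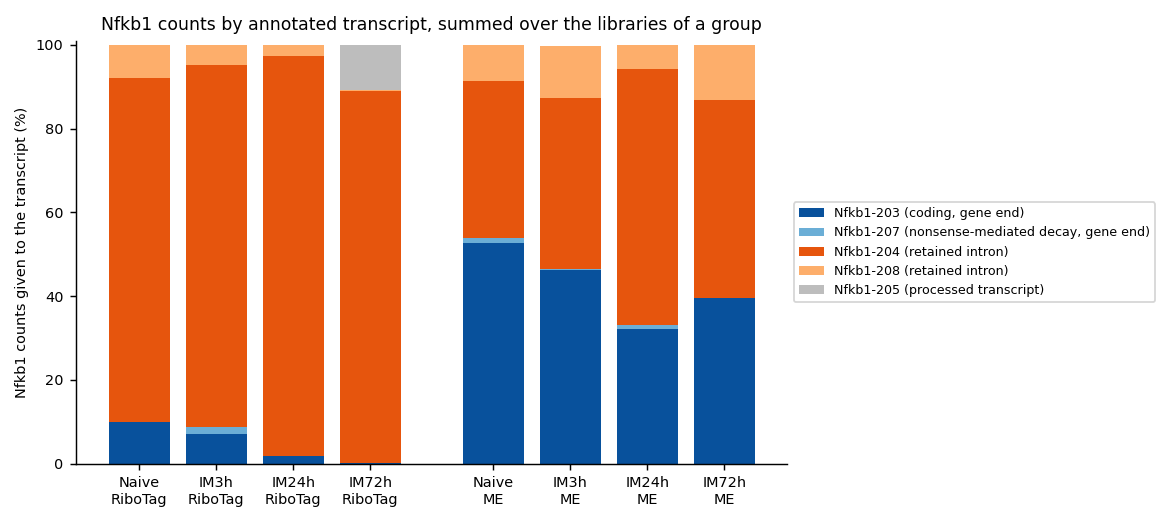
Share of all *Nfkb1* counts (vertical axis, percent, summed over the libraries of a group) given to each annotated transcript, in the 4 *RiboTag* and 4 *ME* groups on the horizontal axis. Blue parts end at the gene's 3′ end and hold 10% in naïve *RiboTag* against 53.9% in naïve *ME*, and orange parts are retained intron forms that end inside the gene.

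Most other members were counted near the gene end, with *Relb* as the exception. *Nfkbia* and *Rel* were each counted from 1 transcript, and *Nfkbiz*, *Nfkb2*, *Bcl3* and *Nfkbie* held 99.7% or more of their counts near the gene end wherever any were counted above the floor of 3. For *Relb* the share near the gene end was 63.4% in naïve and 87.8% in IM3h *RiboTag* libraries and 73.6% and 87.4% in *ME*. In later *RiboTag* libraries it was 57.9% of 442 counts at IM24h and 12.3% of 302 counts at IM72h. At IM3h gene-end counts alone gave a log2 fold change of 1.02 ± 0.46 in glia (adjusted p = 0.18) against 0.55 ± 0.36 for all counts. *Tnip1* counts in glia shifted between forms that share the gene end, with 71.9% on 1 processed transcript in naïve and 22.3% in IM3h libraries, and 44.4% and 35.7% in *ME*. By library the glial shares were 100%, 52.9% and 63.3% in naïve and 44.8%, 34.0%, 1.6% and 0% at IM3h, and the pooled IM3h share was 14% without library 1. Such shares come from the authors' division of reads among overlapping transcripts and carry no test.

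At 24 h after IM, 1 member was called above naïve in the *RiboTag* fraction. *Nfkbia* had 316, 430, 605 and 750 CPM at IM24h, all above the 3 naïve libraries (which held for 6.37% of genes), with a log2 fold change of 2.19 ± 0.44 (adjusted p = 0.0499). The background at IM24h was 0.366% of 15304 genes that rose, and the median log2 fold change of the 8 members tested was 1.08, -0.02 with library totals and -0.64 with reference genes. The call was lost in 6 of the 7 fits that left out 1 library, with adjusted p up to 0.334, and was kept only without IM24h library 1. It was also lost with library totals (1.24, adjusted p = 0.397) and with reference genes (0.62, adjusted p = 0.521). From IM3h to IM24h *Nfkbia* fell by 1.76 on the log2 scale (SE 0.38, adjusted p = 0.0368), against 0.937% of 14193 genes that fell, and this call was lost in 6 of 8 fits that left out 1 library.

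*Rel* had 18.8, 7.64, 44.3 and 21.5 CPM at IM24h, which overlapped both the naïve and the IM3h libraries (log2 fold change against naïve 2.17 ± 0.89, adjusted p = 0.291; against IM3h -0.70 ± 0.55). *Nfkb1* had 62.7, 79.2, 138 and 152 CPM, a log2 fold change of 1.03 ± 0.45 that was not called (adjusted p = 0.334) and that was -0.60 with reference genes and -1.88 ± 1.70 for counts near the gene end (adjusted p = 0.728), of which there were 35 among 1812. *Tnfaip3* transcripts were not listed for IM24h or IM72h, and its values there were set to 0. The smallest total of a listed transcript, over the naïve and IM libraries listed together, was 10 counts. The naïve total of *Tnfaip3* was 4, so low counts at IM24h or IM72h could go unlisted. No fold against IM3h or naïve glia is therefore given. For listed genes a count of 0 in 1 library allows up to 3, taken at the mean depth of the group as a floor in CPM. At IM24h *Nfkbie* did not pass the filter on low counts and *Tnfaip3* was not listed, and 8 members were tested. *Relb* and *Tnip1* varied widely at this time, from 12.2 to 83.4 CPM and from 3.04 to 56.4 CPM. The makeup of the fraction, as read from markers, was not that of naïve libraries. Glial markers summed to 763 to 925 CPM at IM24h and 142 to 1435 CPM at IM72h, against 1571 to 1907 CPM in naïve libraries, and of the 7, *Sox10* was called lower at IM72h. Macrophage and monocyte markers summed to 190 to 326 CPM at IM24h and 224 to 538 CPM at IM72h, with *C1qa* called higher at IM72h (log2 fold change 2.38 ± 0.68, adjusted p = 0.0397), and 2 of the 9 were at 0 in all IM72h libraries. Neutrophil markers summed to 7.13 to 48.2 and 10.3 to 70.0 CPM, and smooth muscle markers to 1296 to 3923 and 1916 to 8468 CPM. Mesothelial markers summed to 0 to 109 and 0 to 52.9 CPM (naïve 111 to 288), and fibroblast markers to 142 to 399 and 212 to 992 CPM (naïve 454 to 546). Neuronal markers summed to 352 to 774 and 133 to 421 CPM (naïve 485 to 954), and endothelial markers to 39.7 to 103 and 23.8 to 85.0 CPM (naïve 20.0 to 35.9). Their part in the late *RiboTag* values was not tested.

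At 72 h no member was called in the *RiboTag* fraction with TMM scaling in edgeR or in DESeq2, where in edgeR 1.05% of 13572 genes rose and 15.1% fell, and 2 members had an unadjusted p under 0.05 with a change of more than 2-fold. *Nfkbia* had 269, 353, 262 and 563 CPM at IM72h, above all 3 naïve libraries (2.68% of genes), with a log2 fold change of 1.67 ± 0.51 (adjusted p = 0.052). The value depended on the scaling, with 1.82 for RLE size factors (adjusted p = 0.038) and -0.05 for library totals (adjusted p = 0.958), and with all groups in 1 fit it was called (1.64, adjusted p = 0.031). *Bcl3* had 0, 3, 0 and 0 counts against 121, 65 and 25 in naïve libraries, so all IM72h libraries were below all naïve ones, which held for 28.4% of genes. *Nfkbie* had no count at IM72h, and a lower level than in naïve libraries was not detectable at this depth, since its naïve mean of 0.743 CPM lies under the floor of 1.82 CPM. For *Bcl3* summed counts per scaled total were 20.2 times higher in naïve than in IM72h *RiboTag* libraries (exact 95% interval 6.82 to 98.7, which covers counting error only), and all 3 IM72h counts were in library 2. Its fitted log2 fold change of -4.47 ± 1.53 depends on how zeros are treated (adjusted p = 0.0824), and it was called with library totals (adjusted p = 0.045), with reference genes (adjusted p = 0.04) and without IM72h library 2 (adjusted p = 0.0199). *Rel* had 27 counts in 1 library and 0 in the other 3, and *Nfkb1* had 31.7, 158, 31.3 and 56.7 CPM, with the highest value in library 2 (log2 fold change 0.38 ± 0.81, and -1.25 with library totals). Counts of *Nfkb1* near the gene end were 135 in all naïve and 1 in all IM72h libraries, and their fit was called lower (adjusted p = 0.0174).

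In the *ME* 7 of 10 members were higher than naïve at IM24h and none was lower, against 15.6% of 16328 genes that were higher and 13.4% that were lower (53.9% of calls, 89.7% with library totals and 28.9% with reference genes). At IM72h 6 were higher and none was lower, against 29.3% and 28.3% of 16592 genes (50.9% of calls, 81.2% and 20.1%). The IM72h count was 3 with all groups in 1 fit (*Nfkb2*, *Bcl3* and *Tnip1*), 1 with an unadjusted p under 0.05 and a 2-fold change, and 4 to 7 without 1 library. Both counts rested on the scaling. With library totals 10 members were called higher at IM24h and 9 at IM72h. With reference genes 4 were higher at IM24h, *Nfkbia*, *Tnfaip3*, *Nfkb1* and *Bcl3*, and at IM72h *Bcl3* was higher (2.40, adjusted p = 8.77e-05) and *Rel* was lower (-0.77, adjusted p = 0.0212). The median log2 fold change of the members fell from 2.63 at IM3h to 1.47 and 0.64, against 0.02 over all genes at both later times. Every IM24h library was above every naïve one in 7 members and every IM72h library in 8, against 20.6% and 33.7% of genes. Within each fraction the same 3 naïve libraries serve all time points, so the comparisons with naïve mice are not independent of each other.

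From IM3h to IM24h, where the Cre line named also differs, 9 members were lower at the later time, all but *Nfkbie*, against 13.4% of 16199 genes that were lower. From IM24h to IM72h 5 members fell and 2 rose, against 19.9% and 18.6% of 16281 genes. With library totals, which moved the median over all genes by 0.80 in the first step, 4 members were called lower in that step, *Nfkbia*, *Relb*, *Bcl3* and *Tnip1*, and *Nfkbie* higher. With TMM scaling *Nfkbia*, *Nfkbiz*, *Tnfaip3*, *Nfkb1* and *Rel* were lower at each step. With library totals the first step was not called for *Nfkbiz* (-0.21, adjusted p = 0.575), *Tnfaip3* (-0.83, 0.117), *Nfkb1* (-0.38, 0.233) and *Rel* (-0.37, 0.277), and with reference genes not for *Nfkbiz* (-1.10, 0.0508). The second step kept its call for all 5 under both scalings. *Nfkbia* had means of 1859 ± 563 (n = 3), 566 ± 265 (n = 4) and 300 ± 48.2 CPM (n = 4) at IM3h, IM24h and IM72h against 190 ± 31.3 CPM (n = 3) in naïve *ME*. *Tnfaip3* had means of 23.6, 7.69 and 2.26 CPM against 1.04 CPM, and *Rel* of 41.1, 18.1 and 5.86 CPM against 6.23 CPM. By IM72h *Rel*, *Nfkb1*, *Nfkbiz* and *Relb* were not called against naïve *ME*, with adjusted p of 0.609, 0.151, 0.0544 and 0.652, while *Nfkbia* (log2 fold change 0.56 ± 0.15, -0.07 with reference genes) and *Tnfaip3* (0.98 ± 0.37) were still higher. The *Tnfaip3* call was lost in 5 of 7 fits that left out 1 library, with adjusted p up to 0.0897.

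*Bcl3* stayed high. It had 25.2, 35.0, 51.8 and 47.0 CPM at IM24h and 38.7, 30.5, 30.9 and 42.1 CPM at IM72h, all above the highest naïve library of 6.36 CPM. The log2 fold changes were 3.26 ± 0.38 (adjusted p = 3.11e-04) and 3.0 ± 0.28 (adjusted p = 7.91e-06), and the step from IM24h to IM72h was not called (-0.25 ± 0.22, adjusted p = 0.412).

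With TMM scaling *Tnip1* and *Nfkb2* were lower at IM24h than at IM3h and higher again at IM72h. *Tnip1* had 37.9, 50.2, 36.6 and 42.6 CPM at IM24h and 57.4, 70.4, 66.4 and 66.4 CPM at IM72h, with no overlap between these groups, as for 23.3% of genes (0.55 ± 0.14, adjusted p = 0.0107). *Nfkb2* had 79.1, 64.7, 77.1 and 84.8 CPM at IM24h and 135, 132, 135 and 149 CPM at IM72h (0.76 ± 0.13, adjusted p = 0.00107), beside an IM3h mean of 143 ± 19.0 CPM (n = 3). The rise was not called with reference genes, at 0.34 for *Tnip1* (adjusted p = 0.366) and 0.51 for *Nfkb2* (adjusted p = 0.225). The difference of *Nfkb2* before it was not called with library totals (-0.095, adjusted p = 0.663) or reference genes (-0.92, adjusted p = 0.0856). Against naïve *ME*, their small IM24h values of 0.17 and 0.03 turned to -0.20 and -0.31 with reference genes and became 0.82 (adjusted p = 0.00549) and 0.67 (adjusted p = 0.0144) with library totals. *Nfkbie* had its highest mean at IM24h, 7.80 ± 3.59 CPM (n = 4), and its IM24h call (1.63 ± 0.48, adjusted p = 0.0289) was lost in 5 of 7 fits that left out 1 library, with adjusted p up to 0.114.

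Summed markers of macrophages and monocytes went from 203 to 231 CPM in naïve *ME* to 556 to 1068 CPM at IM24h and 1049 to 1324 CPM at IM72h, and neutrophil markers were at 45.6 to 214 and 20.9 to 59.1 CPM. Smooth muscle markers were at 3160 to 10621 CPM at IM24h and 12626 to 21211 CPM at IM72h against 21962 to 22852 CPM in naïve *ME*. Fibroblast markers summed to 875 to 1938 and 3101 to 3593 CPM, those of interstitial cells of Cajal to 231 to 376 and 161 to 189 CPM, and those of endothelium to 46.2 to 62.8 and 68.2 to 82.1 CPM. Their part in the members' levels was not tested. The *ME* mice of IM24h and IM72h differ from naïve mice in the Cre line the labels name, so time and line cannot be told apart for these comparisons. The same holds for the step from IM3h to IM24h, since the labels name *Gfap*-cre at IM3h and *Sox10*-icre/ERT2 at IM24h.

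**Figure D5:**
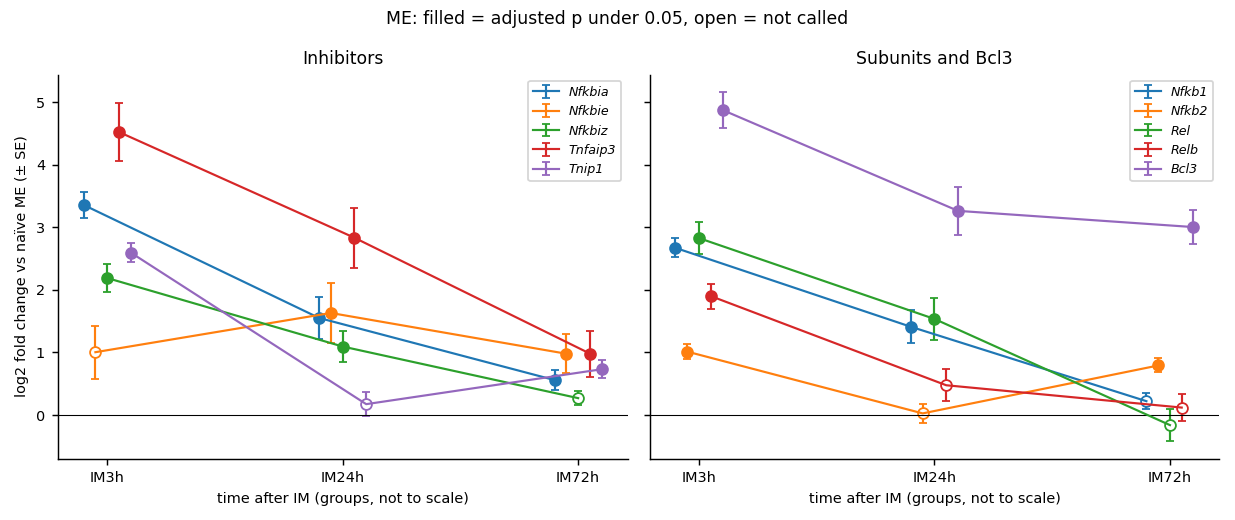
Log2 fold change against naïve *ME* on the vertical axis at IM3h, IM24h and IM72h on the horizontal axis (groups, not to scale), with bars of 1 SE, for inhibitors on the left and subunits with *Bcl3* on the right. Filled points have an adjusted p under 0.05. *Bcl3* stays near 3 from IM24h to IM72h, and with this TMM scaling *Tnip1* and *Nfkb2* are near 0 at IM24h and higher at IM72h, a rise that was not called with reference genes.

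In the late interaction tests no member was called at IM24h in edgeR or DESeq2, where 0.537% of 17508 genes were in edgeR, and 1 had an unadjusted p under 0.05 with a difference of more than 2-fold. At IM72h *Bcl3* was called, against 21.1% of 16527 genes lower, with a fitted value of -7.66 ± 1.46 (adjusted p = 0.00178) that rests on 3 *RiboTag* counts and is no measure of size. The *RiboTag* and *ME* levels behind it were 0 to 1.30 CPM and 30.5 to 42.1 CPM, in *RiboTag* libraries whose glial markers summed to 142 to 1435 CPM.

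Genes of the same pathway outside the 10 members were counted by 5 lists, without a test of any list. At IM3h 23 of the 83 listed genes tested rose in glia (27.7%) and 2 fell, beside 8.86% and 4.44% of all genes, and 50 of 87 rose in the *ME* (57.5%) and 6 fell, beside 19.3% and 13.4%. Of 16 other subunits and inhibitors, 15 were tested in glia at IM3h, 4 rose and none fell, and the median log2 fold change was 0.65. They were *Otulin* (1.69 ± 0.35), *Tax1bp1* (0.97 ± 0.24), *Rela* (0.94 ± 0.27, adjusted p = 0.0369) and *Tnip2* (1.49 ± 0.43). *Rela* encodes p65, the main transactivating subunit, and in the *ME* it rose by 2.43 ± 0.11, and the difference between fractions was called (-1.41, adjusted p = 0.0279). Of 24 receptor-proximal and IKK kinase genes, 5 rose and 1 fell in glia at IM3h, with *Ripk1* at 1.45 ± 0.32, *Tab2* at 0.90 ± 0.23, *Tbk1* at 1.60 ± 0.43 and *Myd88*, the adaptor of IL-1 and Toll-like receptors, at 1.23 ± 0.36. In the *ME* 9 rose and 1 fell.

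Of 12 genes of the non-canonical arm, 9 were tested in glia at IM3h, 3 rose and 1 fell. The TWEAK receptor gene *Tnfrsf12a* rose by 4.13 ± 0.61 in glia and 4.57 ± 0.30 in the *ME*, *Birc2* by 1.35 ± 0.31 and 1.49 ± 0.16, *Birc3* by 1.94 ± 0.56 and 3.45 ± 0.18, and the lymphotoxin β receptor gene *Ltbr* fell by 1.26 in glia (SE 0.27). Of 15 upstream ligands and receptors, 10 were tested in glia and 1 rose, a share near that over all genes. It was *Il1rap*, which encodes the accessory protein of the IL-1 receptor (2.78 ± 0.45), while 8 rose and 2 fell of 12 tested in the *ME*.

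Of 32 widely used target genes, 26 were tested in glia at IM3h, 11 rose and none fell, with a median log2 fold change of 1.84. The chemokine genes *Ccl2* (6.68 ± 0.82) and *Cxcl1* (4.93 ± 0.76), the stress gene *Gadd45b* (3.67 ± 0.47) and the transcription factor gene *Irf1* (1.44 ± 0.24) led by p. In the *ME* 23 of 27 tested rose and none fell, with a median of 2.80. The only target gene whose change differed between fractions at IM3h was *Icam1* (-3.09, adjusted p = 0.0461), among 28 tested. At IM24h the lowest adjusted p on the 5 lists in the *RiboTag* fraction was 0.173 (*Ltbr*), and their medians lay between -0.14 and 1.02. At IM72h 6 of the 68 listed genes tested were called lower in the *RiboTag* fraction (8.82%, beside 15.1% of all genes), among them the cytokine genes *Il33* and *Il18*.

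Likeness of pattern was measured over all libraries of a fraction. Over the 14 *ME* libraries the gene most like *Nfkbiz* and *Tnfaip3* was *Nfkb1* (Pearson r of 0.977 and 0.974 over log2 CPM), *Nfkb1* was among the 3 most like *Nfkbia* (0.979), and *Bcl3* was most like *Rnf19b*, *Junb* and *Socs3* (0.974, 0.966 and 0.965). In the 15 *RiboTag* libraries the values were 0.765 for *Nfkbia* and *Nfkb1* and 0.757 for *Rel* and *Nfkbiz*, and the genes most like *Nfkbia* were *Nes*, *Sox4* and *Ddx21* (0.96, 0.918 and 0.9). *Tnfaip3* in glia was most like *Arc* (0.984), and *Rel* most like *Psme3*, *Ppp1r15a* and *Polr3d* (0.951, 0.949 and 0.949). Libraries of a fraction share their treatment groups and differ in depth, so these values describe the pattern over libraries only.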

How the data were processed

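The authors sequenced 3′ end libraries and, per the labels and the study's methods, trimmed reads with cutadapt, aligned them to mm10 with STAR and quantified transcripts in Partek Flow. The deposited tables hold estimated counts, which need not be whole, per transcript for *RiboTag* and both per gene and per transcript for *ME*. Here *RiboTag* transcript counts were added by gene symbol, *ME* values came from the authors' gene table, and all were rounded to whole numbers. Of 30 labelled samples, 29 had a row, since 3 of 4 naïve *RiboTag* samples were in the tables used here, and 4 further tables with the authors' own fold changes and p-values were not used. Groups came from the operation and fraction named in the tables and labels.

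Each of 13 comparisons was fitted over all genes that passed filterByExpr, with edgeR 4.0.16 (R 4.3.3), TMM scaling and the quasi-likelihood test, two-sided, with Benjamini-Hochberg adjustment over all genes and a threshold of 0.05. Interaction tests used both fractions in 1 fit. Levels are CPM scaled by TMM factors taken over all libraries of a fraction. Log2 CPM for likeness of pattern used a prior count of 2. A count of 0 was given a floor of 3 counts, and intervals and floors cover counting error only. Scripts were tested on simulated data. Alternatives were DESeq2 1.42.0, RLE size factors, library totals, reference genes, no filter, the *ME* transcript table summed by symbol (for comparisons between fractions, chosen after seeing the data), all groups in 1 fit, an unadjusted threshold with a 2-fold change, leaving out each library and, chosen after seeing the data, transcripts that end within 1 kb of the gene end. The 10 members and the gene lists were chosen with earlier results of these data known. Genes named from a list are among the up to 4 with the smallest p in that comparison, called ones first.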

Additional observations from a re-analysis of the deposited data

Results flagged for a closer look

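In groups of 4 libraries the highest or lowest library was compared with the rest by Dixon's criterion for 47 combinations of gene and group, of which chance flags about 1 in 20, and 6 stood far from the others. All 6 were high values in *RiboTag* libraries. IM3h library 4 held 2746 CPM of *Nfkbia*, with the next library at 1721 CPM, and 13.8 CPM of *Nfkbie*, with the next at 3.49 CPM. IM24h library 3 held 83.4 CPM of *Relb*, with the next at 22.9 CPM. At IM72h, *Rel* was at 12.6 CPM in library 1 and *Bcl3* at 1.30 CPM in library 2, and both were at 0 in the other 3 libraries. *Tnip1* was at 168 CPM in IM72h library 2, with the next at 16.6 CPM.

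The change differed between fractions in the interaction test for 4 results, given as the *RiboTag* change minus the *ME* change on the log2 scale. At IM3h the values were -1.81 for *Nfkb2*, -3.40 for *Bcl3* and -2.03 for *Tnip1*. At IM72h the value was -7.66 for *Bcl3*, fitted on 3 *RiboTag* counts.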

How the results depend on the processing

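Of 610 fold changes recomputed under other settings, 547 kept their direction and side of the threshold, 32 lost a call, 15 gained one and 16 turned direction. Of 625 recomputed without 1 library, 558 kept both, 48 lost a call, 7 gained one and 12 turned. The cause was not tested. No paired analysis was possible because no replicate number in the tables could be tied to a labelled sample.

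The number of members called changed under these settings. With library totals it was 0 in *RiboTag* at IM24h, 1 at IM72h, 10 and 9 in *ME* at IM24h and IM72h, 3 in the IM72h interaction, 5 from IM3h to IM24h in *ME* and 4 between naïve fractions. With reference genes it was 2, 0 and 1 in *RiboTag* at IM3h, IM24h and IM72h, 4 and 2 in *ME* at IM24h and IM72h (at IM72h 1 higher and 1 lower), 7 and 5 for the *ME* steps, and 0 in the IM3h interaction. With an unadjusted p under 0.05 and a 2-fold change it was 7, 3 and 2 in *RiboTag*, 10 and 1 in *ME* at IM3h and IM72h, 4, 1 and 2 in the interactions and 8 and 4 for the *ME* steps. With all groups in 1 fit it was 1 in *RiboTag* at IM3h and at IM72h and 3 in *ME* at IM72h. RLE size factors gave 1 in *RiboTag* at IM72h, DESeq2 gave 6 at IM3h, 5 in *ME* at IM72h and 2 in the IM72h interaction, and no filter gave 7 in *ME* at IM72h. Transcripts near the gene end gave 3 and 1 in *RiboTag* at IM3h and IM72h, 6 in *ME* at IM24h, 2 in the IM72h interaction and 0 between naïve fractions. Without 1 library it ranged from 3 to 4, 0 to 1 and 0 to 2 in *RiboTag*, 9 to 9, 6 to 7 and 4 to 7 in *ME*, 1 to 4 in the IM3h and 1 to 3 in the IM72h interaction, 0 to 1 from IM3h to IM24h in *RiboTag*, 7 to 9 and 6 to 8 for the *ME* steps and 1 to 2 between naïve fractions.

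Of the log2 fold changes printed in the text, these turned. With reference genes, *Nfkb1* was -0.60 in *RiboTag* at IM24h and -1.23 at IM72h, *Nfkb2* -0.31 and *Tnip1* -0.20 in *ME* at IM24h, and *Nfkbia* -0.07, *Nfkbiz* -0.34, *Nfkb1* -0.39 and *Relb* -0.50 in *ME* at IM72h. With library totals, *Nfkbia* was -0.050 and *Nfkb1* -1.25 in *RiboTag* at IM72h, and *Rel* 0.46 in *ME* at IM72h. With transcripts near the gene end, *Nfkb1* was -1.88 and -5.13 in *RiboTag* at IM24h and IM72h, -0.20 in *ME* at IM72h and -0.62 between naïve fractions. Without a filter, *Nfkb2* was -0.0024 in *ME* at IM24h.
Without 1 library, fold changes that turned ranged from -0.50 (without IM72h library 2) to 0.62 for *Nfkb1* in *RiboTag* at IM72h, -0.037 to 0.11 for *Nfkb2* in *ME* at IM24h, -0.31 to 0.15 for *Rel* and -0.072 to 0.35 for *Relb* in *ME* at IM72h, and in the IM3h interaction -0.30 to 0.24 for *Nfkbiz*, -0.049 to 0.65 for *Rel* and -1.01 to 3.14 for *Tnfaip3* (the last without naïve *RiboTag* library 2).
Counts outside *AY036118* were 1702521 to 4083482 per *RiboTag* library at IM24h and 663819 to 1619436 at IM72h. The *ME* transcript table in place of the gene table changed no call or direction, including between fractions.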

Other observations

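In the *ME* 49 of the 89 listed pathway genes tested were higher at IM24h (55.1%) and 4 lower, beside 15.6% and 13.4% of all genes, and 50 of 88 were higher at IM72h (56.8%) and 8 lower, beside 29.3% and 28.3%. No list was tested. Of all calls, 53.9% at IM24h and 50.9% at IM72h were higher, 89.7% and 81.2% with library totals, and 28.9% and 20.1% with reference genes. Of 9 macrophage and monocyte markers 6 and 9 were called higher, as were 5 of 5 neutrophil markers tested at both times, and their part was not tested. Of 11 genes of the non-canonical arm tested, 5 were higher and 2 lower at IM24h, and 7 higher and 1 lower at IM72h. Of the 27 target genes tested at IM24h, 18 were higher and none was lower, led by the acute phase genes *Saa3* (log2 fold change 7.86 ± 0.49 SE) and *Lcn2* (7.20 ± 0.53) and the chemokine gene *Cxcl5* (8.24 ± 0.68). At IM72h 18 were higher and 1 lower of 26 tested. Of 12 upstream ligands and receptors tested, 9 were higher at IM24h, led by the TNF receptor gene *Tnfrsf1b* (2.17 ± 0.23), the IL-1 receptor gene *Il1r1* (2.15 ± 0.25) and *Il1b* (6.17 ± 0.87), and 7 at IM72h. Of 16 other subunits and inhibitors, 8 were higher and 1 lower at IM24h, and 7 higher and 4 lower at IM72h. Of the receptor-proximal and IKK kinase genes, 10 of 24 were higher and 1 lower at IM24h, and 12 higher and 2 lower at IM72h, with *Myd88* at 1.85 ± 0.23 and 1.86 ± 0.15. All of these use the same naïve libraries, and time and Cre line cannot be told apart in the *ME*.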
